A study of Mus musculus with 4 samples.

Results

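The 618 sites described here are single adenosines in named genes that carried a called N6-methyladenosine (m6A) level in both the library labelled astrocyte 1 and the library labelled microglia 2. The libraries were chosen by their sites in Slc1a2 and Aqp4, which only these tables hold, and the sites by being listed at the same chromosome, position and strand in both. The listing itself and the sites of those genes are therefore a selection and not a finding. They lay in 566 genes and made up 12.9% of the 4790 named-gene sites of astrocyte 1 and 16.3% of the 3782 of microglia 2. Across all 4 libraries the tables held 10598 different named-gene sites and 25595 sites in all. The lowest level was 10% in astrocyte 1 and 10.4% in microglia 2. The tables give no value for bases that were not listed, so no level just outside the selection can be shown.

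Cells came from mouse cortex and were sorted with an antibody to ACSA2 for astrocytes or to CD11b for microglia, with 2 libraries per label. Every library, in both groups, came from tamoxifen-treated mice of the genotype APOBEC1-YTH, which joins an RNA-editing cytidine deaminase to the YTH domain that binds m6A. Dosing began at 10 weeks of age, was repeated at 24-hour intervals over 5 days with 20 mg/kg each, and ended 7 days before collection. The driver of the fusion, any untreated control and whether replicates came from separate animals are not given in the labels. The m6A mark is placed on messenger and long non-coding RNA by a methyltransferase complex built around Mettl3 and Mettl14, removed by Alkbh5 and Fto, and read by proteins with a YTH domain, which affect splicing, export, translation and decay. In GLORI, unmethylated adenosine is deaminated and read as G, and the level at a site is the percent of reads that still show A. A level of 100% therefore means that no read at that base was converted.

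The label microglia 2 went against that library's own marker genes, and so did the label astrocyte 2. Without Slc1a2 and Aqp4, of 34 astrocyte marker genes, 30 carried a site in astrocyte 1 and 24 in microglia 2, against 1 in astrocyte 2 and 0 in microglia 1. Of 35 microglia marker genes, 27 carried one in astrocyte 2 and 21 in microglia 1, against 2 in astrocyte 1 and 0 in microglia 2. Gfap, an intermediate filament of reactive astrocytes, had no site in any library. Among 16 oligodendrocyte markers, astrocyte 1 listed a site for 13 and microglia 2 for 11, and the remaining libraries for 0. Among 21 neuron markers, astrocyte 1 listed a site for 3 and microglia 1 for 1, and the remaining libraries for 0. The part of these other cells in the results below was not tested. The names of libraries used below are therefore labels, and a value under a name is that of the library so labelled, not of a cell type. In such sorted bulk samples, fewer cells of a type and less RNA per cell cannot be told apart. Because the pair crosses the labels, it gives 1 library per label, and no test of cell type was made. Read depth is not given in the tables, so a difference in level at a single site cannot be set against its counting error.

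Every member carried the 3-mer GAC or AAC, the adenosine in the middle being the called base. GAC accounted for 413 members, or 66.8% (exact 95% binomial interval 63.0 to 70.5%, counting of sites only), and AAC for 205. The share was 67.6% over all named-gene sites of astrocyte 1 and 69.4% over those of microglia 2. The interval of the members held both of these values. Longer sequence around each site could be shown only where a table of hairpins held the gene. The 2 member genes that encode a microRNA were Mir219a-2, host of a microRNA abundant in oligodendrocytes, and Mir6240. Both sites had the 3-mer AAC. The hairpins are shown because they give that 3-mer in its setting, with each AAC in capitals (RefSeq, GRCm38.p6). The site positions are in mm39, so which AAC was the called base, or whether it lay inside the hairpin, was not determined.

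Mir219a-2: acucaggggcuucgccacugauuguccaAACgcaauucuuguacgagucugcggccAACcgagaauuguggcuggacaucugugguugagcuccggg
Mir6240: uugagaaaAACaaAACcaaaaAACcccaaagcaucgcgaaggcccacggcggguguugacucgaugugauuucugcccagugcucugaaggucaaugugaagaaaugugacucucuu

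The Mir219a-2 hairpin of 97 bases holds AAC at 2 places and that of Mir6240, 117 bases long, at 3. In Mir6240, the site at 114990032 of chromosome 5 (plus strand) stood at 90.2% in astrocyte 1 and 95.5% in microglia 2. It was also listed at 95.1% in astrocyte 2 and 93.5% in microglia 1. The Mir219a-2 site at 29735683 of chromosome 2 (minus strand) stood at 100% in astrocyte 1, astrocyte 2 and microglia 2 and at 83.3% in microglia 1. Both were thus high wherever they were listed.

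Levels of the members spread over the whole listed range. In astrocyte 1 the lowest was 10%, the median 77.8% and the highest 100%, with 211 sites at 100%. In microglia 2 the median was 66.7% and 177 sites stood at 100%. Both libraries gave 100% at 138 sites, astrocyte 1 alone at 73 and microglia 2 alone at 39, which left 368 sites below 100% in both. Over those the medians were 50% and 42.9%. A total of 143 members stood below 50% in both libraries, 364 at or above 50% in both, and 111 lay on different sides of 50%. Members were at 100% more often than the sites that only one of the pair listed. The share was 34.1% of members against 26.3% of the other 4172 named-gene sites in astrocyte 1, and 28.6% against 12.6% of the other 3164 in microglia 2.

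Levels at the same base followed each other across the members, with wide scatter. Pearson's r was 0.79 and Spearman's rho 0.79 over the 618 sites, which share their libraries and are not replicates. For the 368 sites below 100% in both libraries Spearman's rho was 0.66. The difference astrocyte 1 minus microglia 2 had a median of 0 points, a mean of 4.4 and an SD over sites of 19.7. In the other pairs of libraries, each over its own shared named-gene sites, r ran from 0.78 to 0.94. The SD of the difference ran from 11.7 to 19.3 points there. Agreement of this kind was thus not particular to this pair, whose SD over all its shared named-gene sites was the largest. The pairs differed in the share of sites at 100% in both libraries, 22.3% here and 32.2 to 59.2% in the other pairs. Over sites below 100% in both, Pearson's r was 0.65 here, the lowest, against 0.68 to 0.86 in the other pairs. The SD over those sites was 20.1 points here and 15.3 to 20.8 in the other pairs. Of the members, 283 were higher in astrocyte 1, 189 were higher in microglia 2 and 146 were equal, 138 of these at 100%. The 2 levels lay within 10 points of each other at 339 members. Astrocyte 1 was over 20 points higher at 100 members (16.2%), against 3.75% of all 3202 sites that the 2 libraries shared. Microglia 2 was over 20 points higher at 53 members (8.6%), against 2.31% of all shared sites. That background includes the 2584 shared sites outside named genes, of which 77.6% were at 100% in both libraries, against 22.3% of members. The higher levels of astrocyte 1 were not limited to members, since the median over all named-gene sites was 66.7% there and 58.9% in microglia 2.

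**Figure D1:**
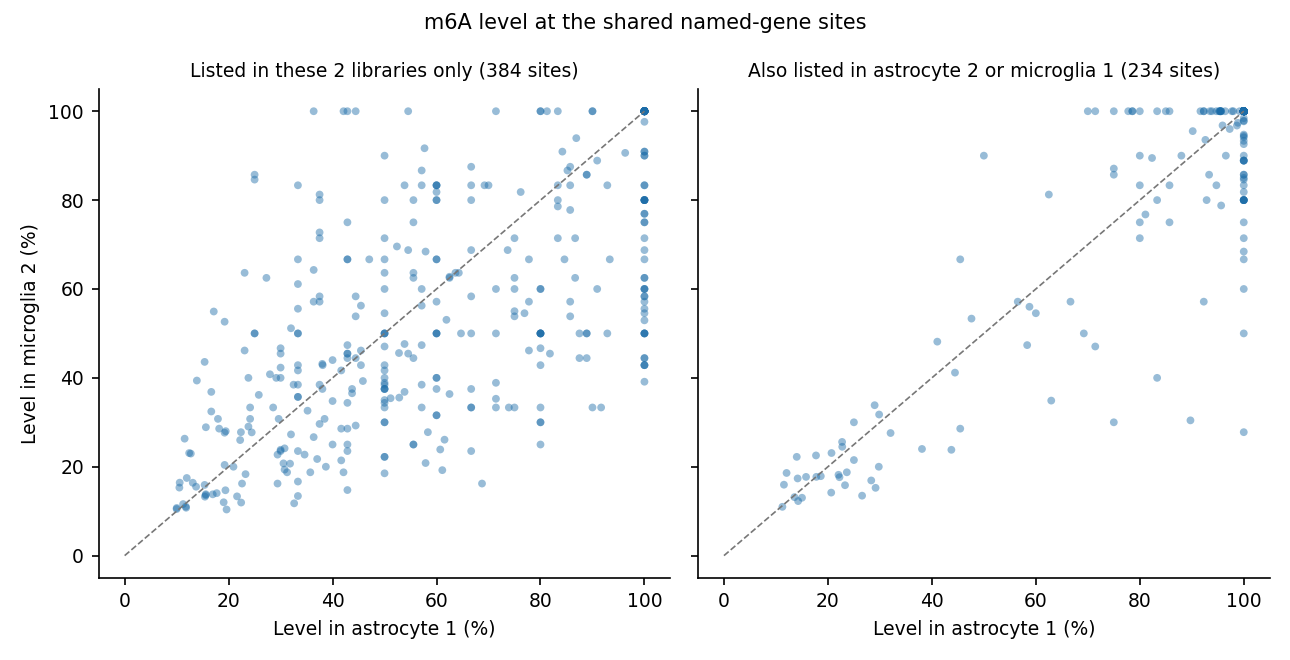
Level at each member in astrocyte 1 (x axis, percent) and microglia 2 (y axis, percent), 1 point per site, with the 384 sites that no other library listed on the left and the 234 listed elsewhere on the right; the dashed line marks equal levels. The points on the left fill the middle of the range with wide scatter, and 102 of those on the right sit at 100% in both libraries.

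Whether the other 2 libraries listed the same base separated the members into unlike sets. Astrocyte 2 listed 142 members and microglia 1 listed 175, with 83 in both and 384 (62.1%, exact 95% interval 58.2 to 66.0%) in neither. At least 1 of the other libraries listed 37.9% of members (34.0 to 41.8%). The same held for 5.4% (4.8 to 6.2%) of the other named-gene sites of astrocyte 1 and 4.5% (3.8 to 5.3%) of those of microglia 2. The intervals cover counting of sites only. Members were chosen for being listed in both libraries of the pair, and the other sites for being listed in only 1. The effect of that choice on the listing elsewhere cannot be told apart from other differences between the sets. These are the 2 largest tables, and the count of shared sites that no further library listed was 384. It was 131 for astrocyte 1 with microglia 1, the smallest table, and 69 for astrocyte 1 with the larger astrocyte 2. The count thus did not simply follow the size of the tables. As a share of the smaller table of each pair, it was 10.2% here, 12.3% for astrocyte 1 with microglia 1, and 2.9 to 4.0% for the other 4 pairs.

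The 384 sites found in these libraries alone stood at intermediate levels. They lay in 347 genes, with a median of 57.1% in astrocyte 1 and 50% in microglia 2. Both libraries gave 100% at 36 of them (9.4%) and values below 50% at 109 (28.4%). GAC made up 73.7% (exact interval 69.0 to 78.0%). Pearson's r between the libraries was 0.66 and the SD of the difference 22.9 points, and 132 of these sites (34.4%) differed by over 20 points. Protein-coding genes held 357 of them.

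The 234 sites also listed elsewhere had a median of 100% in both libraries. Both gave 100% at 102 of them (43.6%), the levels differed by over 20 points at 21 (9.0%), and r was 0.90 with an SD of 12.7 points. GAC made up 55.6% (48.9 to 62.0%) of this set. Soft-masked sequence, written in lower case in the tables and usual for repeats, held 46 members. Of these, 35 were listed elsewhere and 11 in these 2 libraries alone. Across all members at 100% in both libraries, 102 of 138 were listed elsewhere (73.9%), against 132 of the other 480 (27.5%).

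AAC sites stood higher than GAC sites over all members, but not among those below 100%. AAC sites had a median of 95.2% in astrocyte 1 and 83.3% in microglia 2, and GAC sites 68.8% and 58.3%. Of the 138 sites at 100% in both libraries, 74 were AAC (53.6%), against 131 of the other 480 (27.3%). Among the 368 sites below 100% in both, AAC medians were 48.8% and 42.2% and GAC medians 50% and 42.9%.

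A site was listed by the partner library most often when its level was very high or very low. Of the named-gene sites of astrocyte 1 at 10 to under 20%, 46 of 200 (23%, exact 95% interval 17.4 to 29.5%) were listed in microglia 2. At 60 to under 70% the share was 44 of 600 (7.3%, 5.4 to 9.7%), and at 90 to under 100% it was 39 of 115 (33.9%, 25.3 to 43.3%). At exactly 100% it dropped to 211 of 1310 (16.1%, 14.2 to 18.2%). Microglia 2 gave the same shape, with 26.8% at 10 to under 20%, 7.4% at 60 to under 70%, 53.7% of 54 sites at 90 to under 100% and 30.7% at 100%. The lowest share thus fell in the same band of levels in both libraries, though in astrocyte 1 the fall to it was not steady, with 9.8% at 40 to under 50% and 11.6% at 50 to under 60%.

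**Figure D2:**
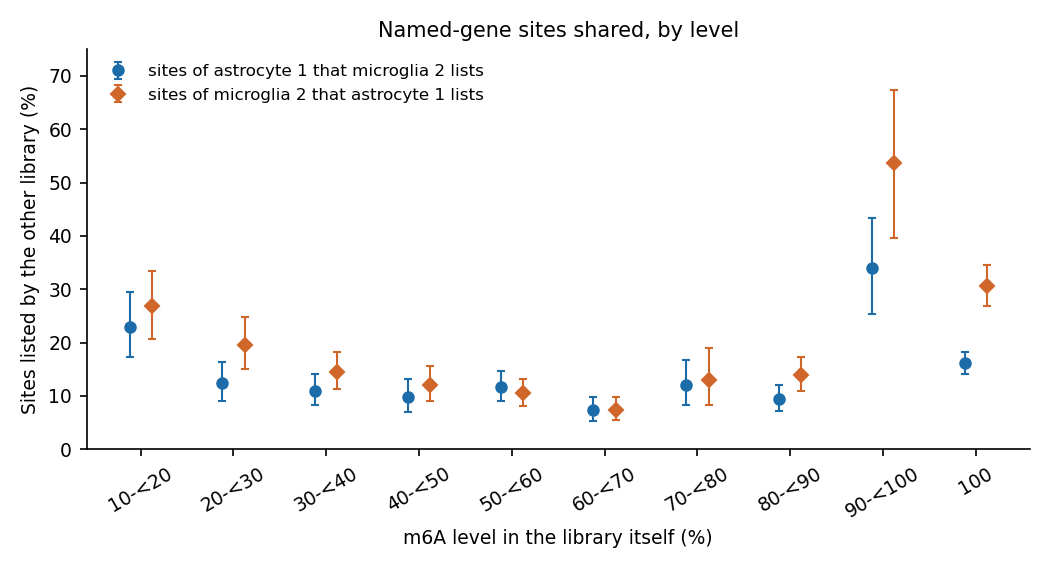
Percent of each library's named-gene sites that the partner library also lists (y axis), by the level of the site in the library itself (x axis, bands of percent, with 100 as its own band); bars are exact 95% binomial intervals for counting of sites. Both series are lowest at 60 to under 70%, at 7.3% and 7.4%, and peak at 90 to under 100%.

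Gene classes came from matching symbols to RefSeq (GRCm38.p6), where 559 of the 566 genes matched. Of these, 466 were protein-coding and 56 long non-coding. Sites in protein-coding genes numbered 513, with medians of 73.9% and 62.5%, and 86 of them (16.8%) were at 100% in both libraries. The 60 sites in long non-coding RNA genes had a median of 100% in both, and 40 of them (66.7%) stood at 100% in both. Small nucleolar RNAs, which guide chemical modification of ribosomal and other RNA, were at the other end, with 14 sites between 11.2 and 32.1% in astrocyte 1 and between 10.8 and 31.8% in microglia 2. Of these, 13 were also listed in astrocyte 2 and 5 in microglia 1, and 11 lay within 10 points in the pair. Small nucleolar RNAs commonly lie in introns of other genes, and these reads cannot be assigned to the small RNA or its host from the tables.

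Slc1a2, which encodes the transporter that clears most synaptic glutamate, had the most shared bases, with 6 on the plus strand of chromosome 2. In order along the chromosome, the first, at 102586413 (GAC), stood at 17.7% in astrocyte 1 and 14.1% in microglia 2. The next, at 102612407 (AAC), stood at 13.1% and 16.4%, and the third, at 102615449 (AAC), at 15.4% and 15.9%. These 3 were low in both libraries and differed by under 4 points. The fourth, at 102617962 (AAC), was the discordant one, with 32.6% in astrocyte 1 and 11.8% in microglia 2. At 102619754 (AAC) the levels were 24.4% and 27.7%, and at 102620681 (GAC) both were 50%. The last base was thus the highest of the 6 in both libraries. Astrocyte 1 listed 14 sites in this gene and microglia 2 listed 13, so 8 and 7 were not shared.

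Other astrocyte genes were also mostly low. Of 36 markers, Slc1a2 and Aqp4 included, 24 had a site in both libraries and 14 of these had a shared base. Without Slc1a2 and Aqp4 it was 12 of 22, and over all genes with a site in both libraries 566 of 1386 (40.8%). The difference was not tested. The 14 marker genes held 22 members. Their median was 24.7% in astrocyte 1 and 21.2% in microglia 2, against 77.8% and 66.7% over all members. Of the 22, 17 stood below 50% in both libraries, against 143 of 618. All 22 were listed in these 2 libraries alone, and the 384 such sites had medians of 57.1% and 50%. Low levels were not particular to shared bases. All sites in these markers, shared or not, had medians of 27.7% over 97 sites in astrocyte 1 and 22.4% over 68 in microglia 2. Without Slc1a2 and Aqp4, whose 8 sites could not be in the other tables, 14 members in 12 genes were left, with medians of 24.8% and 21.2% and 12 of 14 below 50% in both libraries. None of these 14 was listed in astrocyte 2 or microglia 1, where only Glul, among the markers, had any site. Aqp4, a water channel concentrated in endfeet on blood vessels, had a base at 15526773 of chromosome 18 (minus strand) at 25% in astrocyte 1 and 50% in microglia 2. Its other base, at 15533002, stood at 52.8% and 35.6%. The order of the 2 Aqp4 sites was therefore opposite in the 2 libraries.

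Gja1, which encodes the gap junction protein connexin 43, had a site at 56253427 of chromosome 10 (plus strand) at 37.0% in astrocyte 1 and 21.7% in microglia 2. Its second site, at 56265340, stood at 21.6% and 13.3%. Kcnj10, the potassium channel that buffers extracellular potassium, agreed closely, with 29.6% and 30.8% at 172199003 of chromosome 1. Mlc1, a membrane protein of astrocyte endfeet, was the least alike of the markers, with 73.9% and 33.3% at 88841163 of chromosome 15. Bcan, which encodes the matrix proteoglycan brevican, was low at both of its bases, with 16.9% and 13.8% at 87896066 of chromosome 3 and 19.6% and 10.4% at 87904521. By the mean of the pair, the highest marker site was in S100b, a calcium-binding protein, at 60% in astrocyte 1 and 80% in microglia 2.

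The remaining markers each had 1 shared site. Glul, glutamine synthetase, stood at 19.4% in astrocyte 1 and 14.7% in microglia 2, and Slc6a11, a GABA transporter, at 19.0% and 12%. These genes of transmitter uptake and recycling were both below 20% in the pair. Fgfr3, a fibroblast growth factor receptor, stood at 33.3% and 16.7%, Ntsr2, a neurotensin receptor, at 30.6% and 20.8%, and Gpr37l1, a G protein-coupled receptor, at 28% and 40.8%. Plpp3, a lipid phosphate phosphatase, stood at 12.4% and 23.1%, and Slc39a12, a zinc transporter, at 15.6% and 28.9%. Over the 22 sites, 12 were higher in astrocyte 1, 9 were higher in microglia 2 and 1 was equal.

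**Figure D3:**
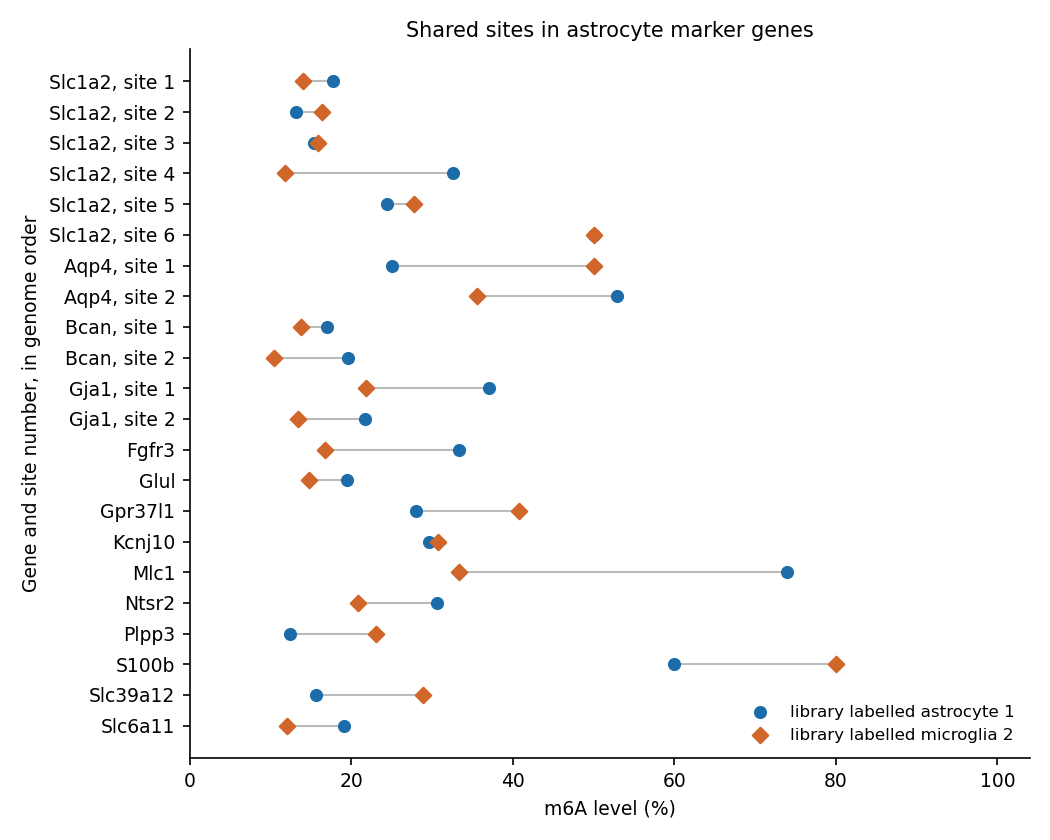
Level (x axis, percent) at the 22 shared sites in astrocyte marker genes, 1 row per site, with circles for astrocyte 1 and diamonds for microglia 2; the circle of Slc1a2 site 6 lies under its diamond at 50%. Of the 22 sites, 17 sit below 50% in both libraries, and the widest gap is in Mlc1, at 73.9% and 33.3%.

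Among 16 oligodendrocyte markers, 9 genes had a site in both libraries and 2 of these had a shared base, against 566 of 1386 (40.8%) over all genes with a site in both. Cnp, a myelin enzyme, stood at 13.7% in astrocyte 1 and 15.5% in microglia 2, and neither other library listed this base. Microglia and neuron markers had no site in microglia 2 and so could have no member. Of the oligodendrocyte precursor markers 1 gene, and of the endothelial and mural markers 2 genes, had a site in both libraries, and none shared a base.

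Genes with several shared bases numbered 41 and held 93 members. Of these genes, 35 had 2 shared sites, 3 had 3, 2 had 4 and Slc1a2 had 6. Their sites were lower than those of genes with 1 shared site, with medians of 43.8% and 33.3% against 80% and 75%. The 2 sets also differed in make-up. Sites listed in these 2 libraries alone made up 81.7% against 58.7%, and sites at 100% in both made up 8.6% against 24.8%. Their part in the lower levels was not tested. In 28 of the 41 genes no shared base was listed in astrocyte 2 or microglia 1. In 15 genes a pair of shared bases lay within 1000 nucleotides. GAC alone was found in 20 of these genes, AAC alone in 4 and both in 17.

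Pearson's r between the libraries was higher for the mean levels of genes than for sites set against their gene's mean. Across the 41 genes the gene means had an r of 0.86, while the deviations of sites from their gene's mean had an r of 0.36. These values cannot be compared directly, because the spreads differed. Gene means had an SD of 28.4 points in astrocyte 1, while the median range within a gene, by the mean of the pair, was 8.9 points. Over these sites the SD of the difference between the libraries was 20.6 points. Whether sites within a gene agreed less than gene means was not tested. Of 71 pairs of sites within a gene, 37 were in the same order in both libraries, 30 in the opposite order, and 4 were tied in at least 1 library. The same order thus made up 55.2% of the 67 pairs that could be ordered. Sites of 1 gene were often alike: the mean of the pair of libraries ranged over less than 10 points in 21 genes and over more than 30 in 11.

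Malat1, a long non-coding RNA of nuclear speckles, was the most concordant of the genes with 3 or more shared bases. All 4 of its bases were low in both libraries, and all 6 pairs of sites kept their order. On the minus strand of chromosome 19, levels in astrocyte 1 and microglia 2 were 14.3% and 12.3% at 5846790, and 17.8% and 17.7% at 5848296. At 5849778 they were 20.7% and 23.1%, and at 5849975 they were 15% and 13%. The last 2 bases were listed in 1 further library each, at 16.7% in microglia 1 and at 25% in astrocyte 2.

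Ddx17, an RNA helicase of splicing and microRNA processing, also had 4 shared bases, in 9 sites of astrocyte 1 and 11 of microglia 2. Levels were 19.2% and 27.7% at 79413248 of chromosome 15 (minus strand), and 66.7% and 23.5% at 79413601. At 79413718 they were 31.8% and 20.7%, and at 79416333 they were 22.7% and 25.6%. Of its 6 pairs of sites, 5 were in opposite order. Microglia 2 thus held all 4 between 20.7% and 27.7%, while astrocyte 1 spread them from 19.2% to 66.7%.

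Kmt2d, a histone H3 lysine methyltransferase, had higher levels at its 3 shared bases on chromosome 15 (minus strand), each higher in astrocyte 1. They were 64.7% and 50% at 98730984, 100% and 66.7% at 98737651, and 86.7% and 71.4% at 98761398. Ttyh3, a membrane protein of the tweety family, stood at 60.7% and 23.9%, 22.2% and 26%, and 25% and 21.5% on chromosome 5 (minus strand). Here 1 of the 3 bases was far apart between the libraries and the others were close.

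**Figure D4:**
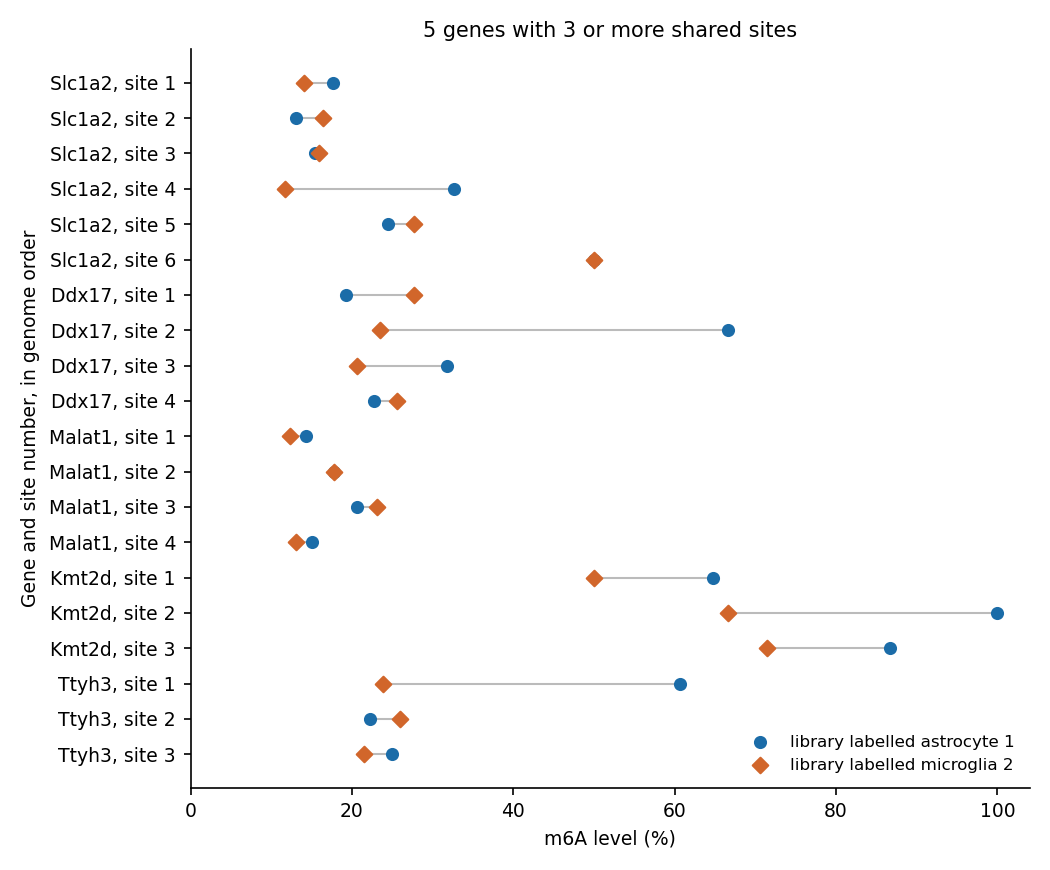
Level (x axis, percent) at each shared site of 5 genes with 3 or more, in genome order, with circles for astrocyte 1 and diamonds for microglia 2; a circle that is not seen lies under its diamond. The Malat1 symbols nearly coincide, while single sites of Ddx17 and Ttyh3 lie far apart.

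Among genes with 2 shared bases, those with the most sites over both libraries included Appl2, Pkd1, Neat1, Ncan and Tulp4. Appl2, an endosomal adaptor, stood at 15.6% and 13.6% at 83436118 of chromosome 10 (minus strand) and at 15.6% and 13.8% at 83467471, although the bases lie 31353 nucleotides apart. Its 2 bases were thus low and nearly equal in both libraries.

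The other 4 each had a base that differed by over 40 points. Pkd1, which encodes polycystin-1, stood at 23.1% in astrocyte 1 and 63.6% in microglia 2 at 24788593 of chromosome 17. Its other base was in all 4 libraries. Neat1, the RNA scaffold of paraspeckles, stood at 80% and 30% at 5875362 of chromosome 19 and at 38.7% and 20% at 5894482. Ncan, the matrix proteoglycan neurocan, stood at 42.9% and 100% at 70548879 of chromosome 8 and at 33.3% and 35.7% at 70560216. Tulp4, a member of the tubby-like family, stood at 90% and 33.3% at 6290149 of chromosome 17 and at 100% in both libraries at 6282698.

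The 5 largest differences in each direction were all at GAC sites, which made up 72.7% of members not at 100% in both libraries. The AAC site of Tulp4 named above came close, at 56.7 points against 57.1 for the last of those listed in the same direction. Dgcr2, an adhesion receptor-like protein, stood at 100% in astrocyte 1 and 27.8% in microglia 2, and astrocyte 2 listed the same base at 92.3%. Mxd4, a repressor of the Myc network, stood at 100% and 39.1%. Usp2, a deubiquitinase, stood at 89.7% and 30.4% at 44005879 of chromosome 9, with 59.6% in astrocyte 2, between those values. Il33, an alarmin cytokine, stood at 91.7% and 33.3%, and Fam193b, first by name among sites tied for the fifth place, at 100% and 42.9%.

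In the other direction Ubqln2, a shuttle protein of protein degradation, stood at 36.4% in astrocyte 1 and 100% in microglia 2. Hdhd5 stood at 25% and 85.7%, and Tom1l2, an endosomal trafficking adaptor, at 25% and 84.6%. Sema4d, a semaphorin, stood at 42.1% and 100%, as did Ncan at the values above. None of these 5 sites was listed in another library, so no further value bears on which of the 2 levels was the unusual one.

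The functional groups of genes held 9 members each or fewer, and differences between groups were not tested. Over all genes with a site in both libraries, 40.8% had a member. Of 35 genes of Notch, Wnt, Fgf, Bmp and hedgehog signalling, 15 had a site in both libraries and 6 of these had a member. Their 7 shared sites had medians of 55.6% and 68.4%. Notch2 stood at 77.8% and 57.1% at 98042873 of chromosome 3 and at 57.9% and 68.4% at 98053781. Ptch1, the hedgehog receptor, stood at 50% and 90%, Fzd2, a Wnt receptor, at 100% and 76.9%, Fzd1 at 50% and 38.5%, and Lrp6, a Wnt co-receptor, at 55.6% and 80%. Of these 7 sites, 4 were higher in astrocyte 1 and 3 in microglia 2.

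Of 24 cholesterol and fatty acid genes, 8 had a site in both libraries and 5 of these had a member. Their 6 shared sites had medians of 35.7% and 23.8%. Scd2, a fatty acid desaturase, stood at 12% and 17.5% at 44289725 of chromosome 19 and at 33.3% and 13.4% at 44295149. Srebf2, the regulator of cholesterol synthesis, was close at 40% and 44%. The Lrp1 base was also listed in microglia 1, at 40%, beside 38.1% and 24% in the pair. Elovl5, a fatty acid elongase, stood at 33.3% and 23.5%.

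Of 28 adhesion genes, 19 had a site in both libraries and 6 of these had a member. Their 9 shared sites had medians of 42.9% and 32.6%, and 7 were higher in astrocyte 1. Ncam1, the neural cell adhesion molecule, stood at 57.1% and 33.3% at 49427481 of chromosome 9 and at 100% and 52.9% at 49710229. Cdh10, a cadherin, was low at 10.6% and 16.4%. Of 35 chromatin regulators, 12 had a site in both libraries and 4 of these had a member. Their 7 shared sites had medians of 86.7% and 60%, and 6 were higher in astrocyte 1. Kmt2d alone held 3 of these sites. Over all 618 members, 283 were higher in astrocyte 1 and 189 in microglia 2, so both groups leaned the same way as the members at large. Setd5, a SET domain protein, stood at 100% and 58.3% at 113128029 of chromosome 6. Ep300, a histone acetyltransferase, stood at 84.2% and 90.9%, the only site of the group that was higher in microglia 2.

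Of 30 immediate early genes, 5 had a site in both libraries and 2 of these had a member. Sgk1, a kinase induced by glucocorticoids, stood at 61.1% and 19.2%, and Bdnf was in all 4 libraries. Of 30 ribosomal protein genes, only Rpl7a had a site in both libraries, and its base was shared. Among nuclear long non-coding RNAs, Xist, which silences one X chromosome in female cells, stood at 85.2% and 86.7%. Astrocyte 1 listed 11 sites in Xist and microglia 2 listed 5, against 0 in astrocyte 2 and 0 in microglia 1. The last 2 libraries also had fewer named-gene sites, 2348 and 1066. Tsix, listed as an antisense RNA, had a member at 100% in all 4 libraries. The sex of the animals was not assessed from these counts. Of 22 m6A writers, erasers and readers, only 2 had a site in both libraries, and neither shared a base.

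The 83 members listed in all 4 libraries are the only bases with 2 values under each label. Their levels were at 100% in all 4 libraries at 34 sites, below 100% in all 4 at 16 and mixed at 33. In the pair, the SD of the difference over the 83 was 6.1 points and r was 0.97. Of the 16 sites below 100% in each library, 9 stood below 50% in all 4, and the range over the 4 libraries was under 10 points at 10. With 2 libraries per label, the smallest two-sided p an exact permutation could reach is 0.33, so no test was made.

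Most of these 16 were either low or high, and so were the sites with the smallest range among them. Gm22126, listed as a pseudogene, stood at 22.8% (astrocyte 1), 25.9% (astrocyte 2), 26.9% (microglia 1) and 24.5% (microglia 2), at 35846239 of chromosome 13. Bdnf, the brain-derived neurotrophin, was high at 92.6%, 95.9%, 90.4% and 93.5% in the same order. Gm26728, a long non-coding RNA, was also high, at 95.9%, 96.6%, 90.2% and 96.8%. The 2 labels overlapped at each of these bases. Grouped as the pair described here against the others, astrocyte 1 and microglia 2 were both lower at Gm22126. At Bdnf and Gm26728 the pair overlapped with the others.

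Of the 5 small nucleolar RNA sites in this set, 4 were low in every library. Gm26165 stood at 15.8% (astrocyte 1), 21.5% (astrocyte 2), 18.8% (microglia 1) and 17.7% (microglia 2). Snord38a stood at 23.6%, 25.5%, 20% and 18.8%, Snord21 at 17.7%, 19.7%, 25.5% and 22.5%, and Snord2 at 14.2%, 23.8%, 18.2% and 17.4%. In Snord38a both libraries labelled astrocyte were above both labelled microglia, in Snord21 both were below, and in Gm26165 and Snord2 the labels overlapped. Grouped by the pair instead, astrocyte 1 and microglia 2 were below both others in Gm26165 and Snord2. In Snord38a and Snord21 the pair overlapped with the others. The other small nucleolar RNA, LOC115490046, was among the most variable, with 29.9% and 31.8% in astrocyte 1 and microglia 2 but 49.1% in astrocyte 2 and 59.7% in microglia 1. Ddx19a, an RNA helicase of messenger RNA export, had the widest range among the 16, at 58.8%, 45.5%, 75.6% and 56% in the order above. Haspin, a histone H3 kinase, stood at 20.6%, 15.2%, 21.8% and 14.2%, which put the replicate 1 libraries above the replicate 2 libraries. Malat1 at 5848296 stood at 17.8%, 14.4%, 20% and 17.7%. Its base at 5846790 was lower in the pair, at 14.3% and 12.3%, than in astrocyte 2, at 29.7%, and microglia 1, at 25%.

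**Figure D5:**
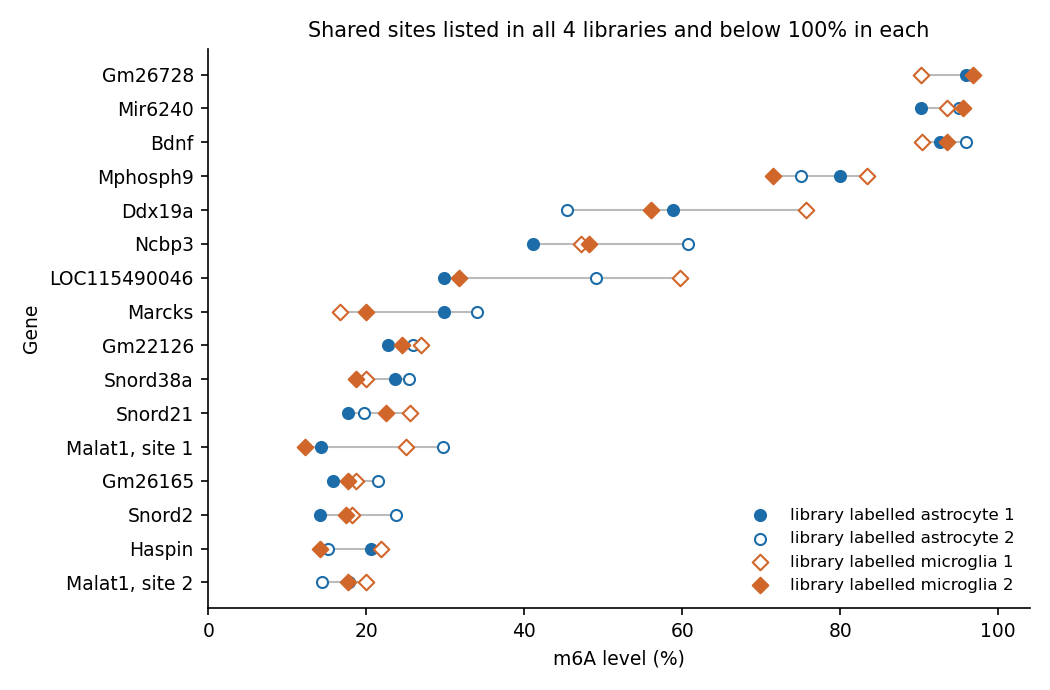
Level (x axis, percent) in each of the 4 libraries at the 16 members listed in all and below 100% in each, 1 row per site, ordered by mean; circles are libraries labelled astrocyte, diamonds those labelled microglia, and filled symbols the pair described here. The widest rows are Ddx19a and LOC115490046, where microglia 1 is the highest, and Gm22126 spans only 22.8 to 26.9%.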

How the data were processed

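Each library has 1 table of called sites, deposited by the authors, with 7 columns and no header. The level is a fraction, given by the authors with no coverage, counts or p-values, and is printed here as a percent. Per the series' design text, site calling used GLORI-tools. The submitters' processing notes name STAR and mm39. The sources used here do not give calling thresholds, annotation or sequencing depth, so no level has a counting interval. No mm39 sequence or annotation was used here, so exons, introns and UTRs were not assigned. Positions are the 1-based end column. Names of genes are those in the tables.

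Sites were matched by chromosome, position and strand, and the letter case of 3-mers was ignored. Medians, correlations and exact binomial intervals were computed in Python 3.11.15 with pandas 2.3.3, NumPy 2.4.6 and SciPy 1.17.1, and the code was tested on simulated tables. No significance test was made, because the pair gives 1 library per label. Named genes were those with the most shared sites, the astrocyte markers with a shared site and up to 3 genes from each of the other lists, the 5 largest differences in each direction and the 10 sites with the smallest range over 4 libraries. Further genes of those lists, LOC115490046 and Ddx19a were named after their values were seen. The 14 gene lists hold 342 different symbols. Members and lists were chosen with earlier results of these data known. Alternatives covered matching, sites at 100%, a minimum level of 20%, the scale and 1 value per gene. Some genes that this rule names are not reported here.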

Additional observations from a re-analysis of the deposited data

How the results depend on the processing

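The number of shared sites stayed within 1.5 times of 618 under all 4 alternatives, with 548 at a level of at least 20% in both libraries, 480 without sites at 100% in both, and 618 when strand was ignored or when 1 base of offset was allowed. Sites at 100% carried several of the other values. Without sites at 100% in either library, Pearson's r was 0.65 in place of 0.79, the medians were 50% and 42.9% in place of 77.8% and 66.7%, and the median difference was 3.05 points in place of 0. The GAC share was then 74.5% in place of 66.8%, genes with several shared sites numbered 27 in place of 41, and 19.8% of members, in place of 37.9%, were listed in another library. On the log2 odds scale r was 0.77, and at a level of at least 20% it was 0.71. An alternative added after the data were seen kept only sites that neither other library listed, with r at 0.66, medians of 57.1% and 50%, a median difference of 2.59 points and a GAC share of 73.7%. No paired analysis was possible because the values here are descriptions that come from no test, so there was no fit to which the replicate number could be added. Unknown read depth limits every single level.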

Other observations

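Most genes with a site in both libraries did not share a base. Of 1386 such genes, 566 (40.8%) had a shared base and 820 did not. Fat1, a giant cadherin, had 7 sites in astrocyte 1 and 9 in microglia 2 with none in common, and Slc4a4, a bicarbonate transporter of astrocytes, had 5 in each. Farp1 had 10 and 4, Zeb1, a transcriptional repressor, 9 and 5, and Son, a nuclear speckle protein, 8 and 6. These genes were named after their counts were seen. Sites that were not shared but lay in a gene listed by both libraries numbered 1988 in astrocyte 1, where the nearest microglia 2 site of that gene lay at a median of 1204.5 nucleotides along the genome. In microglia 2 there were 1696 such sites, at a median of 979 nucleotides. Within 100 nucleotides of a partner site lay 173 (8.7%) and 177 (10.4%) of them.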
